A study of Mus musculus with 57 samples.

Results

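Cells taken from the brain of Sod1G86R mice and called control cells in the labels were compared with the control cells of wild-type mice at the later ages, 90 and 105 days. The comparison rests on 16 of the 57 libraries of the series, 8 of Sod1G86R and 8 of wild type. They were chosen by their titles, as all control-cell libraries numbered 90 or 105, with 4 libraries per genotype at each age. The number was used as a stratum, so that the genotype difference is the mean of the differences within 90 and within 105. The labels give this number with no unit, and it is taken here as an age in days. The series as a whole measured RNA of corticospinal neurons (CSN, the cortical neurons that project to the spinal cord) and of control cells in Sod1G86R and wild-type mice. The labels give the tissue as brain and do not describe the control cells, the strain or how the cells were isolated. Sod1G86R mice carry a mutant form of the mouse superoxide dismutase 1 gene as a transgene and keep their own copies, and no line carrying the normal form of the transgene was among the groups used here. Of the 16 animals, 14 also gave a CSN library.

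Sod1 encodes the copper- and zinc-dependent superoxide dismutase of the cytosol, which converts superoxide into oxygen and hydrogen peroxide. Mutations in the human gene cause a familial form of amyotrophic lateral sclerosis (ALS), in which motor neurons of the spinal cord and corticospinal neurons degenerate. Mice with mutant Sod1 transgenes develop progressive motor neuron disease, and the mutant protein is made in many cell types besides motor neurons. The control cells carry a label other than CSN, but whether they exclude CSN is not known. Their RNA shows how the genotypes differ in cells given that label.

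The genotype label was checked first with Sod1 (ENSMUSG00000022982, GRCm38 chromosome 16, 90220754 to 90226329, plus strand). The transgene and the endogenous gene are both of the mouse, so their reads fall on the same gene and cannot be told apart in a gene count.

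Sod1 was far higher in every Sod1G86R library. Its level, in normalised reads, was 96567, 128520, 110610 and 155480 in the Sod1G86R libraries of 90 days and 38567, 102990, 98761 and 131080 in those of 105 days. In wild type it was 3328, 3954, 3325 and 3605 at 90 days and 4244, 3554, 2995 and 3007 at 105 days. The lowest Sod1G86R library, replicate 10 at 105 days, was still above the highest wild-type library, so the groups did not overlap. Over both ages the means were 107820 ± 34386 and 3502 ± 436 (SD, n = 8 each). On the log2(value + 34.6) scale the difference was 28.8-fold (log2 fold change 4.85, SE 0.22, limma adjusted p = 1.45e-11). Within 90 days the log2 fold change was 5.08 and within 105 days 4.62, and their difference did not pass (-0.46, SE 0.45). Scaf4, which encodes a regulator of transcript termination, shares 650 bases with Sod1 on the other strand, and the library kit does not mark strand. Its own level averaged 262 in Sod1G86R and 349 in wild type, far under that of Sod1.

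The other gene that passed was Gm8566 (ENSMUSG00000047905, GRCm38 chromosome 6, 67205619 to 67206083), named here although its symbol falls outside the rule for named genes. It stood at 819 ± 350 in Sod1G86R (lowest 284, highest 1242) and 15.7 ± 4.60 in wild type (lowest 9.81, highest 23.9; n = 8 each; log2 fold change 3.95, SE 0.33, limma adjusted p = 8.77e-07). As for Sod1, no Sod1G86R library overlapped a wild-type library. Of its 465 bases, 455 (97.8%) are identical to the Sod1 transcript, and the longest identical run is 122 bases. Of its 416 windows of 50 bases, the length of a read, 32.9% occur unchanged in a Sod1 transcript, so its values are uncertain.

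**Figure D1:**
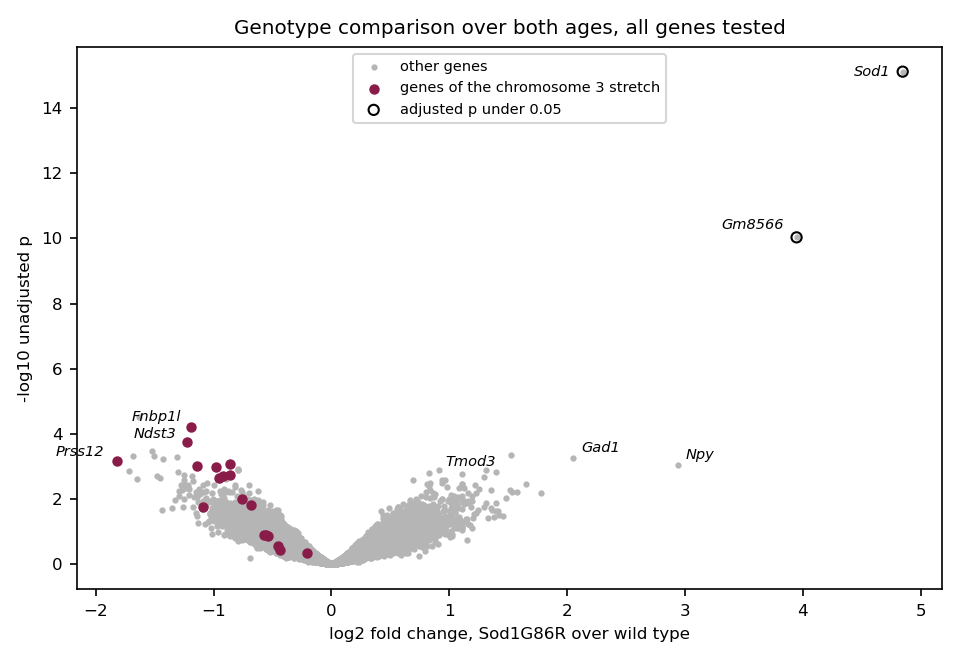
Log2 fold change of Sod1G86R over wild type (x axis, log2(value + 34.6) scale) against the -log10 of the unadjusted limma p (y axis) for the 18773 genes tested over both ages. Sod1 and Gm8566 stand apart at the top right, no other gene is ringed as passing, and the 18 genes of the chromosome 3 stretch all lie left of 0.

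Across all genes, 2 of 18773 passed a limma adjusted p of 0.05 over both ages (0.0107%), both of them higher in Sod1G86R, and 0 were lower. At an unadjusted p under 0.05 there were 668 genes (3.56%), 286 higher (1.52%) and 382 lower (2.03%). EdgeR also called 2 genes, and DESeq2 called 6, of which 2 were higher and 4 lower. The precision was enough to limit changes of most genes. The median SE was 0.31 on the log2 scale, and the 95% interval of the genotype difference lay within 1 log2 unit of 0 for 12706 genes (67.7%) and within 2 units for 18607 (99.1%). The median SD between libraries of a group was 0.56 log2 units in control cells and 0.29 in CSN of the same ages. Both were taken over the 10409 genes averaging 346 or more in the higher genotype of the control cells. Within a group, the correlation of log2 values between libraries was 0.860 to 0.956 over 18773 genes in control cells and 0.944 to 0.978 in CSN.

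The libraries held 26.7 to 64.2 M recovered reads (median 36.1 M). Sod1G86R libraries had 36.3 ± 9.17 M and wild-type libraries 42.5 ± 10.6 M (n = 8 each). Mitochondrially encoded genes took 1.93% ± 0.88 of reads in Sod1G86R and 1.77% ± 0.54 in wild type. Neither these nor 4 other library measures differed by an exact permutation test of the genotype within ages (two-sided, p = 0.196 to 0.739 over the 6 measures, adjusted p = 0.739 for each). The summed levels of the cell type marker lists varied widely over the 16 libraries, with a ratio of the highest to the lowest library of 1.98 for corticospinal markers and 12.1 for GABAergic neuron markers. Bulk libraries cannot tell fewer cells of a type from less RNA per cell. A pair of wild-type libraries stood apart. Replicate 9 at 90 days had a summed level of ependymal and choroid plexus markers of 122050, against at most 466 in Sod1G86R and 408.5 in the other wild-type libraries. Replicate 9 at 105 days had the lowest sum of pan-neuronal markers, 90859, and the highest sums of astrocyte (262130) and microglia (312000) markers. With both left out, 2 genes passed, and Sod1 had a log2 fold change of 4.82. The Y-linked gene Ddx3y ranged from 2359.5 to 5651.9 and Xist from 0 to 174.6 over the 16 libraries, so that Ddx3y was high and Xist low in each. The labels do not give the sex.

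**Figure D2:**
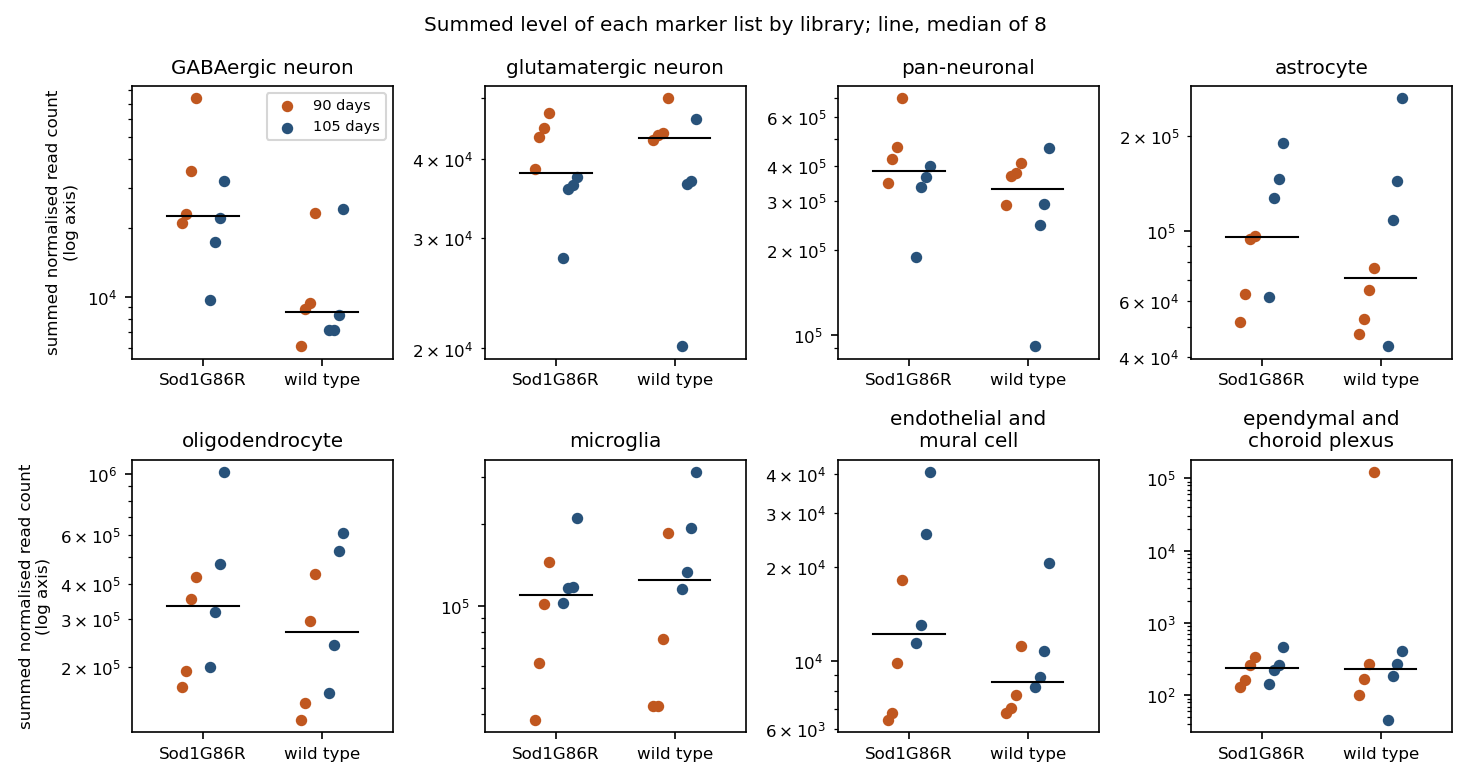
Summed normalised read count of 8 lists of cell type markers (log y axis) in the 8 Sod1G86R libraries (left) and the 8 wild-type libraries (right), coloured by age, with the median of each genotype as a line. GABAergic markers have a median of 22603 in Sod1G86R and 8599 in wild type with overlap between the groups, and 1 wild-type library of 90 days stands at 122050 for choroid plexus markers.

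Creb3 encodes a transcription factor held in the membrane of the endoplasmic reticulum (ER) and released by cleavage in the Golgi, and it is the gene named in the title of the series. It had 4848 (lowest), 6160 (median) and 8993 (highest) normalised reads in Sod1G86R and 2746, 5222 and 7253 in wild type, with overlapping groups. Its log2 fold change was 0.35 (SE 0.23, 95% interval -0.12 to 0.82, limma adjusted p = 1.0), so a rise of more than 0.82 or a fall of more than 0.12 lay outside the interval. In the CSN of the same ages its value was 0.82 (SE 0.22, adjusted p = 0.160), and the difference between control cells and CSN did not pass (-0.47, SE 0.29, adjusted p = 0.918). Of 12 genes of the CREB3 family and its partners, 9 were tested and 0 passed, with a median of 0.12. Mbtps2, the site-2 protease that cleaves such factors, stood at -0.43 (959 ± 383 in Sod1G86R, 1286.5 ± 430 in wild type).

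A set of neighbouring genes with lower values in Sod1G86R lay on chromosome 3. Among the genes with the smallest p in the lower direction, Fnbp1l, Ndst3 and Prss12 lie within 1 stretch of it, as do Cnn3, Rwdd3 and Gclm. Fnbp1l encodes an adaptor that couples membrane curvature to actin assembly. It stood at 1061 (lowest), 1459 (median) and 2268 (highest) in Sod1G86R and at 1920, 3366 and 5768 in wild type (log2 fold change -1.19, SE 0.24, limma adjusted p = 0.293). Its groups overlapped by 1 Sod1G86R library, replicate 3 at 90 days, which was above the lowest wild-type library. Ndst3 encodes an enzyme that modifies heparan sulfate, and had 313, 837 and 1016 reads in Sod1G86R and 1184, 1687 and 3098 in wild type. All 8 Sod1G86R libraries were below all 8 wild-type libraries, with a log2 fold change of -1.23 (SE 0.27, adjusted p = 0.654). Prss12, which encodes the brain serine protease neurotrypsin, stood at 188 ± 174 in Sod1G86R and 613 ± 283 in wild type (-1.82, SE 0.46, adjusted p = 0.939). None of these passed with limma. DESeq2 on the recovered reads called Fnbp1l (-1.25, adjusted p = 0.00991) and Ndst3 (-1.27, adjusted p = 0.0409), and limma with array weights called both too (-1.41, adjusted p = 0.0218, and -1.47, adjusted p = 0.0473).

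The stretch was bounded by the outermost of 7 genes known from an earlier analysis of the CSN of these animals, at 121155398 to 125938619 on GRCm38 (4.78 Mb), so the choice of genes and direction is not independent of these data. Within it, 18 genes averaged 346 or more over the 16 libraries, which leaves out Rwdd3 and Sec24d. All 18 were below 0 in Sod1G86R, 12 of them at an unadjusted p under 0.05 against 2.03% of all genes, and 0 passed after adjustment with limma. Cnn3 passed without wild-type replicate 13 at 105 days (-1.40, adjusted p = 0.047). Their median log2 fold change was -0.86, with a range of -1.82 (Prss12) to -0.21. Gclm, the regulatory subunit of glutathione synthesis, stood at 1099 ± 282 in Sod1G86R and 2010 ± 423 in wild type (-0.86, SE 0.22, adjusted p = 1.0). Cnn3, an actin-binding protein, had 2864 ± 1436 in Sod1G86R and 7297 ± 6206 in wild type (-1.14, SE 0.30). Rwdd3, a factor that promotes sumoylation, had 150 ± 127 in Sod1G86R and 383 ± 113 in wild type (-1.48, SE 0.42). Gclm and Ugt8a (-0.55), an enzyme of myelin lipid synthesis, are also members of the antioxidant and oligodendrocyte lists, and Sec24d (-1.29), a coat protein of ER-to-Golgi vesicles, lies there too at a lower level.

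Each Sod1G86R library was low over the stretch. The mean of the 18 genes relative to the wild-type mean was -1.32, -0.45, -0.98 and -0.73 on the log2 scale in the Sod1G86R libraries of 90 days and -0.84, -1.03, -0.81 and -0.61 in those of 105 days. Wild-type libraries had -0.09, -0.08, -0.03 and -0.03 at 90 days and 0.15, 0.10, -0.24 and 0.22 at 105 days. The groups did not overlap. By age the median over the 18 genes was -0.83 at 90 days and -0.96 at 105 days, and in the control cells of 30 days it was -0.97. In the CSN of 90 and 105 days it was -0.85, with all 18 below 0 and 2 that fell (Fnbp1l and Ndst3), against 0.0201% of all genes. Without the 2 wild-type libraries that stood apart, the median in control cells was -0.81. The difference in genotype effect between control cells and CSN passed for 0 of the 18. The 14 genes of the 5 Mb before the stretch had a median of -0.05 and the 13 of the 5 Mb after it 0.00. Of the 14 before it, 10 were below 0, 2 of them at an unadjusted p under 0.05 against 2.03% of all genes. With limma 0 of the 14 passed. Of the 13 after it, 6 were below 0, 1 of them at an unadjusted p under 0.05, and 0 passed. The lowest was Camk2d, the first gene after the stretch, at -0.95 (SE 0.31) in control cells and -1.44 in CSN. It is named here after its values were seen. Among 396 windows of 5 Mb over the genome, a window of chromosome 3 that overlaps the stretch had the lowest median and the next lowest was -0.28. In the 5 Mb before the stretch lies Gm26871, a processed transcript with 684 ± 327 reads in Sod1G86R and 2210 ± 1000 in wild type (-1.64, SE 0.31, limma adjusted p = 0.187), named here after its values were seen, as is Ptbp2, a splicing factor of neurons (-0.79). Gm26871 passed with DESeq2 (-1.70, adjusted p = 0.0020) and with array weights (-1.80, adjusted p = 0.0256), and it fell in CSN (-1.46, limma adjusted p = 0.0419), so lower values were not confined to the stretch.

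**Figure D3:**
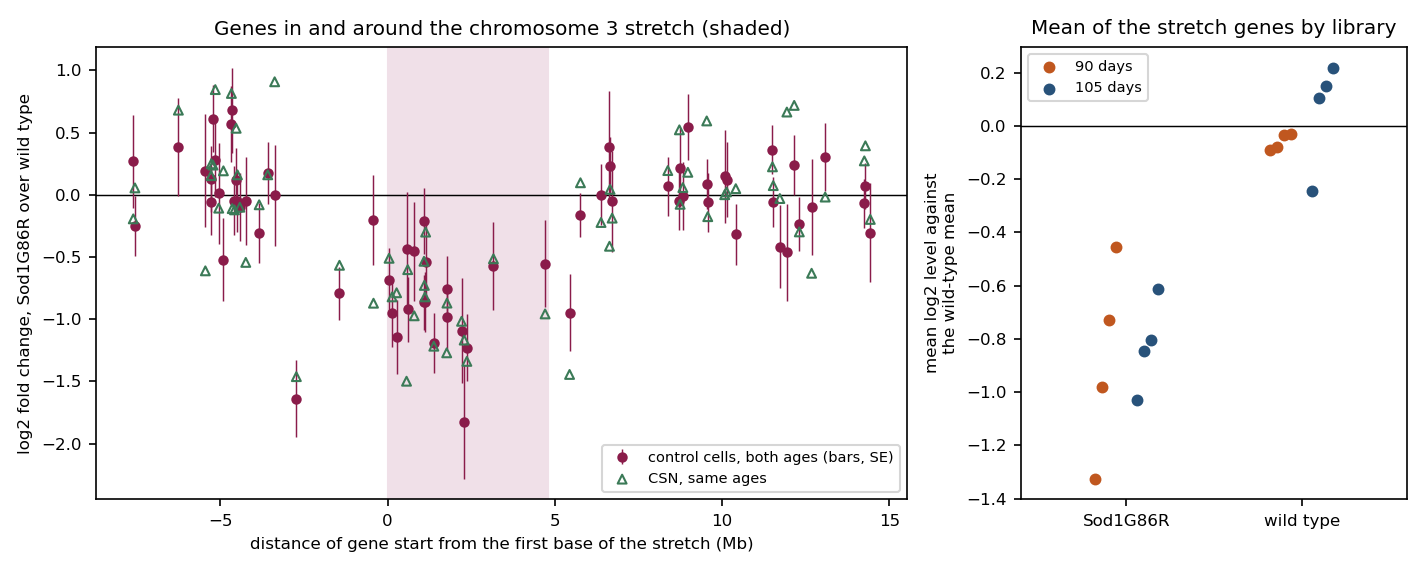
Left, log2 fold change of Sod1G86R over wild type (y axis) by distance of the gene start from the first base of the chromosome 3 stretch in Mb (x axis), for control cells (circles, bars show SE) and CSN of the same ages (triangles). Right, the mean of the 18 stretch genes in each control-cell library on the log2 scale, where the Sod1G86R libraries lie between -1.32 and -0.45 and the wild-type libraries between -0.24 and 0.22.

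GABAergic neuron markers had higher values in Sod1G86R, though none passed. Gad1, which encodes the main enzyme of GABA synthesis, had 1500 (lowest), 3358 (median) and 7445 (highest) reads in Sod1G86R and 61.4, 888 and 3475 in wild type. The groups overlapped, with wild-type replicate 7 at 90 days and replicate 11 at 105 days inside the Sod1G86R range. The log2 fold change was 2.05 (SE 0.50, limma adjusted p = 0.931), and 8 of 8 Sod1G86R libraries exceeded the wild-type mean. It was 1.62 within 90 days and 2.49 within 105 days. Npy, the neuropeptide made by a class of interneurons, had 1939, 8231 and 29347 reads in Sod1G86R and 165, 712 and 9559 in wild type (2.94, SE 0.74, adjusted p = 1.0). Gad2, the second GABA-synthesising enzyme, had 2510 ± 1652 in Sod1G86R and 947 ± 1021 in wild type (1.65, SE 0.50), and Pvalb, a calcium buffer of fast-spiking interneurons, had 351 ± 463 in Sod1G86R and 80.03 ± 142.8 in wild type (1.78, SE 0.59). Neither passed (adjusted p = 1.0 for both).

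Of the 14 GABAergic markers 13 were tested and 0 passed, while 4 were higher at an unadjusted p under 0.05 against 1.52% of all genes. All 13 were above 0, with a median of 0.64 (0.00 over all genes), 0.67 at 90 days and 1.07 at 105 days. The summed level of the list had a lowest, median and highest value of 9687, 22603 and 73725 in Sod1G86R and 6081, 8599 and 24172 in wild type. Glutamatergic markers had sums of 27792 to 47296 in Sod1G86R and 20154 to 49885 in wild type. Whether the share of interneurons among the cells moved with the genotype was not tested. In the CSN of the same ages the median of the list was 0.01, and Gad1 stood at -0.53. The difference in its genotype effect between the cell types was 2.58 (SE 0.81, limma adjusted p = 0.918). Npy passed without wild-type replicate 11 at 105 days (3.55, adjusted p = 0.0159), the library with 9559 reads, and Gad1 ranged from 1.64 to 2.41 without each library in turn. Without the 2 wild-type libraries that stood apart, Gad1 stood at 1.56, Npy at 2.39 and the median of the list at 0.43.

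**Figure D4:**
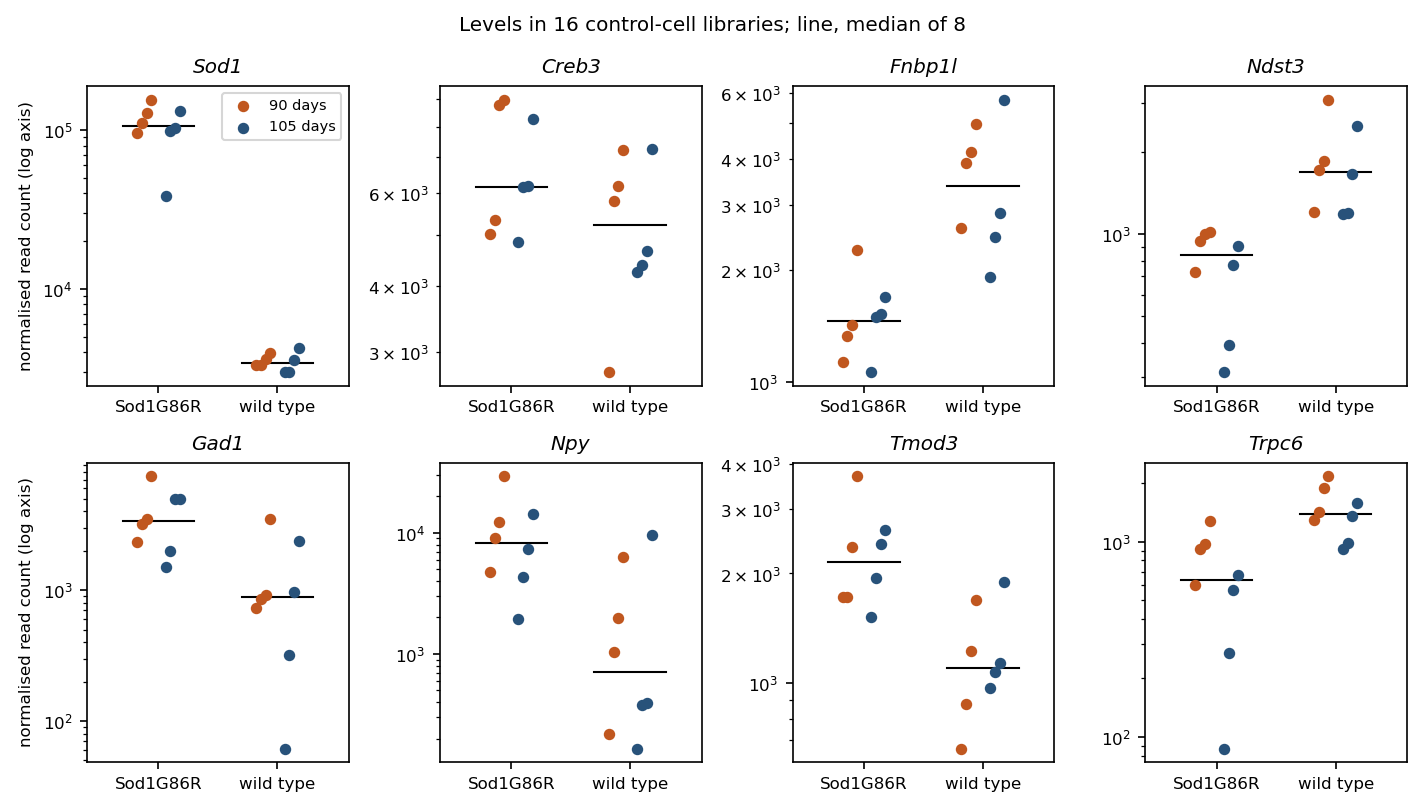
Normalised read count (log y axes) of 8 genes in the Sod1G86R (left) and wild-type (right) control-cell libraries, coloured by age, with the median of 8 libraries as a line. Sod1 and Ndst3 do not overlap between the genotypes, with Ndst3 at 313 to 1016 in Sod1G86R and 1184 to 3098 in wild type, and the other genes overlap in at least 1 library.

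The remaining genes named by rule did not pass either. Tmod3, which caps the slow-growing end of actin filaments, had 2251 ± 702 in Sod1G86R and 1191 ± 412 in wild type (0.92, SE 0.25, adjusted p = 1.0). Trpc6, a calcium-permeable cation channel, had 669 ± 384 in Sod1G86R and 1448 ± 423 in wild type (-1.31, SE 0.32, adjusted p = 0.931). Slc39a11, a zinc transporter, had 94.8 ± 79.7 in Sod1G86R and 355 ± 171 in wild type (-1.68, SE 0.41, adjusted p = 0.931). Over all tested genes, 2 had every Sod1G86R library above every wild-type library (0.0107%), namely Sod1 and Gm8566, and 3 had every one below (0.016%), namely Ndst3, Ptbp2 and Man1c1, a mannosidase of the Golgi (-0.79). Ptbp2 and Man1c1 were named after their values were seen.

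Lists of neuronal genes other than the GABAergic ones had medians between -0.24 and 0.23, and none of their members passed with limma. Corticospinal and deep-layer markers had 11 of 18 above 0 and 7 below, with a median of 0.15 and the lowest value at -0.51 (Crim1). Fezf2, a transcription factor that specifies subcortical projection neurons, had 640 ± 349 in Sod1G86R and 214 ± 153.4 in wild type (1.51, SE 0.48, adjusted p = 1.0), and Pcp4, a calmodulin regulator, had 4935 ± 3284 in Sod1G86R and 2098 ± 1042 in wild type (1.12, SE 0.42). Upper-layer and callosal markers had 4 of 15 above 0 and a median of -0.15, with the homeobox factor Cux2 at 805 ± 199.6 in Sod1G86R and 1318 ± 461 in wild type (-0.66, SE 0.23). Pan-neuronal markers had 14 of 15 above 0 (median 0.23), such as the RNA-binding protein Elavl2 (0.83) and the microtubule regulator Stmn2 (0.56). Glutamatergic markers had a median of -0.06 over 10 genes, from Slc17a7, the vesicular glutamate transporter (-0.37), to the transcription factor Neurod6 (0.87).

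At the synapse, 17 of 24 postsynaptic and glutamate receptor genes were below 0, with a median of -0.24, and 3 were lower at an unadjusted p under 0.05 against 2.03% of all genes. Gria3, a subunit of AMPA receptors, had 13228 ± 4612 reads in Sod1G86R and 19480 ± 6983 in wild type (-0.54, SE 0.24, adjusted p = 1.0). The adhesion protein Lrrtm2 stood at -0.52 and the scaffold Shank3 at -0.50. Presynaptic genes had a median of 0.05 over 20 genes, led by Cplx1, a clamp of vesicle fusion (0.66, SE 0.24). Voltage-gated ion channels had a median of -0.15 over 24 genes and axonal cytoskeleton and transport genes 0.19 over 24. Of 31 ALS-linked genes other than Sod1, 0 passed and 14 were above 0 (median -0.03), with the tubulin Tuba4a at 0.67 (SE 0.43) and Tia1, a stress granule protein, at -0.34 (SE 0.19).

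Glial and vascular markers did not pass in either direction. Microglia markers had 4 of 16 above 0 with a median of -0.10, and Trem2, a phagocyte receptor, had 2404 ± 998 in Sod1G86R and 3216 ± 2110 in wild type (-0.30, SE 0.32). In the CSN of the same ages the microglia list had a median of -0.97. Disease-associated microglia genes, a program described around degenerating neurons, had a median of 0.00 over 14 genes, with the lectin Lgals3 at -0.89 (SE 0.48). Astrocyte markers had 6 of 12 above 0 and a median of 0.00, with the folate enzyme Aldh1l1 at -0.41 (SE 0.37), the glutamate transporter Slc1a3 at 0.63 (SE 0.42) and Gfap, the intermediate filament of reactive astrocytes, at 0.68 (SE 0.56). Oligodendrocyte markers had a median of 0.16 over 12 genes, with the myelin genes Mal at 0.64 and Mbp at 0.70. Of these 12, 3 were below 0, the lowest being Ugt8a at -0.55. Endothelial and mural cell markers had 12 of 14 above 0 and a median of 0.36, with the lowest value at -0.56 (Pdgfrb). Pecam1, an adhesion molecule of endothelium, had 845 ± 436 in Sod1G86R and 343 ± 111 in wild type (1.10, SE 0.34, adjusted p = 1.0), and the pericyte gene Rgs5 stood at 0.77 (SE 0.28). The summed level of the vascular list was 6432 to 40555 in Sod1G86R and 6762 to 20696 in wild type.

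Immune lists were near 0 in their medians, with 0.09 for 20 interferon and antigen presentation genes and 0.01 for 17 complement and inflammatory genes. The interferon regulator Irf7 stood at 1.02 (SE 0.43), the peptide transporter Tap1 at 0.91 (SE 0.41) and Stat2 at 0.84 (SE 0.40), and none passed. Irf7 averaged 160 ± 283 in Sod1G86R and 17.8 ± 16.8 in wild type, with 839 in the highest Sod1G86R library, replicate 9 at 105 days, and a median of 44.4 over the 8. Immediate early genes, induced within minutes of stimulation, had a median of -0.06 over 17 genes. Npas4, an activity-dependent transcription factor, had 284 ± 149 in Sod1G86R and 660 ± 318 in wild type (-1.11, SE 0.36, adjusted p = 1.0), and Egr2 stood at -0.76 (SE 0.38). Of 17 genes of p53 and cell death, 0 passed, with 10 above 0, 7 below and a median of 0.09. Gadd45a, a DNA damage gene, stood at 1.01 (SE 0.37) and Pmaip1, a pro-apoptotic BH3 protein, at 0.85 (SE 0.37). The lowest was Bcl2l11 at -0.57.

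Genes of protein quality control and energy metabolism had medians under 0.2 in size except for antioxidant and cholesterol synthesis genes, and 0 members passed. Of 32 proteasome subunits, 29 were above 0, with a median of 0.15, and all 32 had a 95% interval within 1 log2 unit of 0. Psmd11, a subunit of the regulatory particle, had 7704 ± 2820 in Sod1G86R and 5712 ± 1864 in wild type (0.43, SE 0.24). In the CSN the median of this list was 0.55. Nuclear-encoded respiratory chain genes had 43 of 44 above 0 with a median of 0.15 (0.55 in CSN), led by Ndufv1, a core subunit of complex I, at 8111 ± 1663 in Sod1G86R and 5873 ± 2731 in wild type (0.58, SE 0.25). This median took the opposite sign, -0.12, in the lowest of the alternative settings. Mitochondrially encoded genes had a median of 0.06 over 11 genes in control cells and -0.59 in CSN. A test of whether the genotype effect differed between the cell types passed for 0 of 19919 genes (0%) with limma. There were 927 at an unadjusted p under 0.05 and 10 called by DESeq2, so these medians are given side by side only.

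ER stress genes had a median of 0.04 over 30 genes, with Asns, an amino acid response gene, at 0.51 (SE 0.36) and the stress-induced factor Ddit3 at 0.44 (SE 0.28). Autophagy and lysosome genes had a median of 0.14 over 26, ER-to-Golgi trafficking genes 0.01 over 28 and heat shock chaperones 0.14 over 18, such as Dnaja1 (0.32, SE 0.19). Antioxidant genes had a median of 0.21 over 21, and Gsr, which regenerates reduced glutathione, had 1380 ± 432 in Sod1G86R and 2002 ± 513 in wild type (-0.56, SE 0.23). The list of copper and zinc handling genes, the metals of the enzyme that Sod1 encodes, had a median of -0.02 over 19. None of these 19 was past an unadjusted p of 0.05. Slc39a11, the zinc transporter given above with lower values in Sod1G86R, is not in this list. Cholesterol synthesis genes had 15 of 20 above 0 and a median of 0.28. Hsd17b7 stood at 0.81 (SE 0.32) and Fdft1 at 0.48 (SE 0.22), while Lss, the enzyme that closes the sterol rings, stood at -0.88 (SE 0.34). Glycolysis genes had a median of 0.14 over 19 and ribosomal protein genes 0.01 over 30. Of the 38 lists, 14 kept the sign of their median in all alternative settings and without each library, and 24 changed sign in at least 1.

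**Figure D5:**
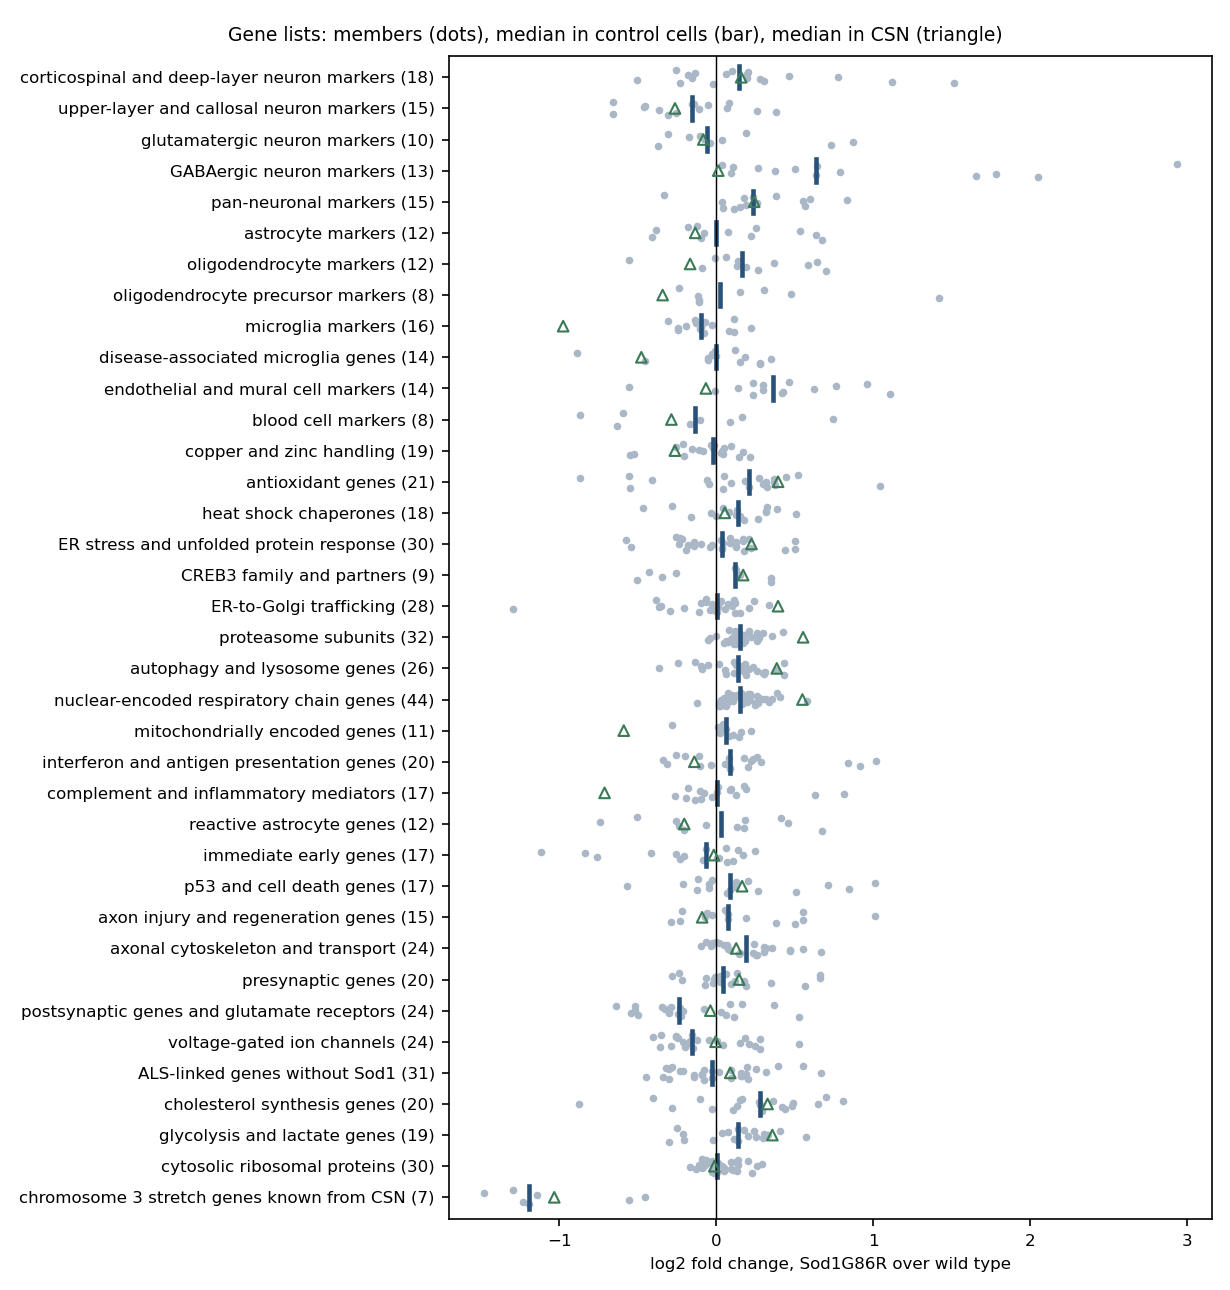
Log2 fold change of Sod1G86R over wild type (x axis) for the members of the gene lists in control cells (dots), with the list's median in control cells (bar) and in CSN of the same ages (triangle), and the number of members tested in parentheses. The chromosome 3 list lies lowest at a median of -1.19, the GABAergic list highest at 0.64, and the other medians drawn for control cells lie between -0.24 and 0.36. The ependymal and choroid plexus list (median -0.68, 3 members tested) is not drawn.

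Each age on its own gave the same count. Within 90 days 2 genes passed (0.0107%), and within 105 days 2 (0.0107%), in both cases Sod1 and Gm8566, with 439 and 706 genes at an unadjusted p under 0.05. The genotype effect differed between 105 and 90 days for 0 of 18773 genes (0%, 465 at an unadjusted p under 0.05) with limma, for 0 with edgeR and for 8 with DESeq2. The DESeq2 log2 fold changes of these 8 ran from -8.00 to 12.2. Values that did not pass with limma included Prox1, a transcription factor of interneurons and granule cells (2.17 within 90 days, SE 0.50), Arhgap12 (1.37), Prelp (-2.57) and Pqlc2 (-1.85) within 90 days. DESeq2 called Prox1 (2.36, adjusted p = 0.0244) and Prelp (-3.80, adjusted p = 0.0244) within 90 days. Within 105 days the values that did not pass with limma included Rrm2, a subunit of ribonucleotide reductase (2.1, SE 0.60), and Alg14, a gene of the chromosome 3 stretch (-1.46, SE 0.39). Among the genes named by rule for the difference between the ages, the smallest p belonged to Rrm2 (3.60, SE 0.85, limma adjusted p = 1.0). DESeq2 called Rrm2 (4.88, adjusted p = 0.0324). Prss23 and Prelp on the higher side and Tdrd7, Arhgap12 and Zfp788 on the lower side followed.

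Against the control cells of 30 days, 3 of Sod1G86R and 4 of wild type, the later genotype effect differed for 0 of 19559 genes (0%, 1153 at an unadjusted p under 0.05) with limma, and for 7 with DESeq2. The DESeq2 log2 fold changes of these 7 ran from -4.65 to 25.9. At 30 days itself 2 genes passed (0.0102%), Sod1 (4.84) and Gm8566 (3.19). Gad1 stood at 2.32 (SE 0.81, adjusted p = 0.747) at that age, in animals that are not among the 16. The GABAergic list had a median of 0.89 there. Among the smallest p-values for a difference between the later ages and 30 days were those of Col19a1, a collagen (-2.04, SE 0.45, limma adjusted p = 0.730, called by DESeq2 at -2.06 with adjusted p = 0.00825) and Phactr3 on the lower side and of Sccpdh (1.93), Fgfr2 (2.05) and Rras2 (2.02) on the higher side. Without Sod1G86R replicate 4 at 30 days, 1 gene passed.

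In the CSN of 90 and 105 days (14 libraries), fitted together with the control cells, 7 of 19919 genes passed (0.0351%), 3 higher (0.0151%) and 4 lower. At 105 days the Sod1G86R CSN came from replicates 9 and 13 only. The spread was larger in control cells than in CSN over the genes for which it is given above. A further test compared the genotype effect, as a log2 fold change, between the cell types (control cells minus CSN), and not their levels. Among the genes named by rule, Pecam1 (1.91, SE 0.51, limma adjusted p = 0.918), Slc39a8 (1.72) and Neat1 (1.70) had higher genotype effects in control cells. Cab39l (-1.31, SE 0.32), Haus7 (-1.40) and the cell adhesion gene Cdh13 (-1.59) had lower ones, and none passed with limma. DESeq2 called Pecam1 (2.41, adjusted p = 0.0309) and Prox1 (3.48, adjusted p = 0.0309). Sod1 itself had a log2 fold change of 5.27 in CSN, and the difference from control cells was -0.42 (SE 0.28, adjusted p = 0.918).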

How the data were processed

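Total RNA of cells from mouse brain was measured by RNA-seq. Per the labels' protocols and the series' design text, libraries were prepared from Trizol extracts with SMART-Seq v4 (11 cycles) and Nextera XT (12 cycles), and paired reads of 50 bases from a HiSeq 4000 were mapped with STAR 2.7.0 to GRCm38 with Ensembl 87 and counted per gene. The submitters' processing notes also name edgeR. The deposited signal is a table of normalised read counts of 45337 genes in 57 libraries, and how the authors normalised them is not stated in the sources read for it. Each library's values were whole multiples of 1 step (tolerance 0.001, 100% of values), so whole reads were recovered.

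Values were tested on log2(value + 34.6), the 34.6 being 1 ppm of a median column, so fold changes of low genes are understated. Genes with at least 34.6 in 4 or more libraries entered limma 3.58.1 (R 4.3.3), with robust trended variance, 1 coefficient per genotype and age, and Benjamini-Hochberg adjustment over all genes tested at 0.05. EdgeR 4.0.16 and DESeq2 1.42.0 on the recovered reads, other filters, pseudocounts, weights and leaving out each library were alternatives. The scripts were tested on simulated data. Members and gene lists were chosen with earlier results of these data known. Named genes were Sod1, Creb3, up to 4 per list and the genes with the smallest p in each direction of each comparison. Those of the comparisons had to average 346 or more in the highest group compared. Predicted, clone and Riken symbols were left out of them. No source says how animals relate to litters or batches, so p-values measure the spread between these libraries. Of the late animals, 14 gave libraries of both cell types, whose deviations had a median correlation of 0.0178 (-0.326 to 0.189). The main fit of both cell types took these libraries as independent. A fit with the animal as a block (consensus correlation -0.0356) was an alternative. Coordinates are GENCODE M21 on GRCm38 (44987 genes matched). Figures used matplotlib 3.10.9 and the alignment of Gm8566 to Sod1 Biopython 1.88. A few named genes and 1 sequence are not reported here.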

Additional observations from a re-analysis of the deposited data

Results flagged for a closer look

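Of 424 groups of 4 libraries checked, 42 held 1 library far from the other 3. The cut-off used flags about 5% of groups of normally distributed values. Gene levels were taken without logs, and genes and the sums of their lists overlap. The 42 therefore cannot be read as an excess over that 5%. Levels are normalised reads, and no cause was tested.

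In Sod1G86R at 90 days, replicate 3 was highest for Cux2 (1273) and Pvalb (1459.5) and had the fewest recovered reads (31.5 M). Replicate 6 was highest for Prelp (133.9). Replicate 5 was highest for Gad2 (5637) and Shank3 (575). Replicate 8 was highest for Cyc1 (11552), Gfap (309.7) and Irf7 (80.3), and its 100 most abundant genes took the largest share of reads (22.5%).

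In Sod1G86R at 105 days, replicate 9 was highest for Elavl2 (1894), Psmd11 (10134) and Sec24d (68.7). Replicate 10 was highest for Prss12 (481) and replicate 12 for Lgals3 (124). Replicate 13 was lowest for Stmn2 (8859) and for the summed glutamatergic markers (27792), and highest for the summed microglia markers (210820).

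In wild type at 90 days, replicate 7 was highest for Gad1 (3475), Gad2 (3031), Pvalb (408.5), Gpr17 (879.6), Stat2 (719.7), Prox1 (239) and Tap1 (83.4). Replicate 9 was highest for Ttr (116540), Folr1 (3240), Cab39l (2846) and for the summed choroid plexus markers (122050). Replicate 3 was lowest for Atp7a (91.6).

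In wild type at 105 days, replicate 11 was highest for Npy (9559), Gfap (62.5) and the summed GABAergic markers (24172). Replicate 12 was highest for Creb3 (7253), Egr2 (5217), Gpx3 (292), Irf7 (41.0), Mbp (48823) and Slc17a7 (7143). Replicate 9 was highest for Slc39a8 (236). Replicate 13 was highest for Pvalb (161) and lowest for the summed corticospinal markers (18563).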

How the results depend on the processing

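DESeq2 called 6 genes over both ages, 6 within 90 days, 8 within 105 days and 8 for the difference between the ages. It called 10 for the genotype effect in control cells against that in CSN and 7 for the later ages against 30 days. Array weights gave 5 over both ages. Without each library in turn, 2 to 3 genes passed over both ages, and 0 to 1 for the later ages against 30 days. Replicate numbers shared by the genotypes did not pair the libraries (5 pairs, correlations -0.171 to 0.418, 1 over 0.1). The replicate block draws the genotype difference only from those 5 pairs. Wild-type replicates 7 at 90 days and 11 at 105 days, the highest wild-type libraries for Npy (6352 and 9559 reads), lie outside them. With this block 1 gene passed within 90 days, and Npy had 3.17 over both ages (limma adjusted p = 0.00386). Signs turned for Trem2 (0.029) with array weights and for Folr1 (0.069) with the replicate block. They also turned for the mitochondrial share (-0.0185) and the share of the 100 most abundant genes (-0.147) within 105 days and the haemoglobin share (0.0065) within 90 days. The causes were not tested. Leaving out both wild-type libraries numbered 9 was chosen after seeing the data. The spread between control-cell libraries limits single genes to differences of about the intervals given.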
